A study of Mus musculus with 2 samples.

Results

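The globin genes of the mouse, which encode the embryonic and the adult-type chains of haemoglobin, were followed in sorted cells of the embryonic forelimb. The members were taken by name, as the rows listed under *Hbb-y*, *Hbb-bh1*, *Hba-x*, *Hbb-b1*, *Hbb-b2*, *Beta-s*, *Hba-a1* and *Hba-a2*, which makes 8 of 22096 gene symbols. The ScxGFP-positive group held cells with green fluorescence and the ScxGFP-negative group cells without it, both sorted from forelimbs of E13.5 embryos and of mixed strain background. In ScxGFP embryos the fluorescent protein is driven by regulatory sequence of *Scx*, a transcription factor gene of tendon and ligament progenitors, so the negative sort can hold any limb cell without the reporter, blood cells among them. Each group was 1 library, made from cells of 6 forelimbs (3 pairs) pooled. With no replicate there was no test, and every difference below describes these 2 libraries only.

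Haemoglobin is a tetramer of alpha-type and beta-type chains that each hold a haem group. In the mouse the alpha-type genes lie together in one cluster and the beta-type genes in another. The first red cells, made in the yolk sac and called primitive, enter the circulation with nuclei and express the zeta chain (*Hba-x*) and the embryonic beta-type chains (*Hbb-bh1*, which declines early, and *Hbb-y*, which persists in maturing primitive cells). Definitive red cells, made in the fetal liver, carry the adult-type chains. Primitive cells contain adult-type chains too, so a transcript does not by itself name the wave a cell belongs to.

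Values are FPKM as the authors deposited them, that is, fragments scaled by the length of the transcript and by how many fragments were mapped, so levels of different genes may be compared. *Scx*, which checks the labels, had 134 FPKM in ScxGFP-positive cells and 1.69 FPKM in ScxGFP-negative cells. Coverage was a constant 2.28 times the FPKM in ScxGFP-positive cells and 2.39 times in ScxGFP-negative cells. By the definition of FPKM this factor grows with mapped sequence, so the libraries were of similar depth. Aligned bases, the coverage times the transcript length, are given where a value rests on little sequence. Read counts could not be recovered, so no counting interval is given.

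The adult-type rows have to be read with their sequence in view. On mouse chromosome 7 of mm9, *Hbb-b1* (110961042 to 110962437) and *Hbb-b2* (110961038 to 110962417) share 1376 positions, so they are a pair of transcript models at 1 place, and *Beta-s* lies at 110975037 to 110976442. RefSeq's table for GRCm38.p6 lists the transcript named *Hbb-b1* in the files under *Hbb-bt* and that of *Beta-s* under *Hbb-bs*. The start of the coding sequence of 4 beta-type genes, bases 1 to 90 from the GENCODE M21 transcripts, shows how far they differ. Capitals mark bases that differ from *Hbb-bt*.
Hbb-bt: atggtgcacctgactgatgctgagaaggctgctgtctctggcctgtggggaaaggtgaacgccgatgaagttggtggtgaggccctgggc
Hbb-bs: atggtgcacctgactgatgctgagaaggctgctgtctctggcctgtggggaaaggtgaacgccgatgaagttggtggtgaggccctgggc
Hbb-y: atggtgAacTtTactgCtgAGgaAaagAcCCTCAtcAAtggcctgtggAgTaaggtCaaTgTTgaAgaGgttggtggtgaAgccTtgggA
Hbb-bh1: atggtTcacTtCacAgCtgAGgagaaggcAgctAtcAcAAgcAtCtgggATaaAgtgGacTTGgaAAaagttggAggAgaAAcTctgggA
Over the whole coding sequence of 444 bases, *Hbb-bt* and *Hbb-bs* differed at 1 base and shared a run of 416 bases, so the reads of these genes cannot be told apart over nearly all of it. *Hbb-y* differed from *Hbb-bt* at 115 bases and *Hbb-bh1* at 116, and neither shared a run longer than 22 bases with it. *Hbb-y* and *Hbb-bh1* differed from each other at 105 bases, with a longest shared run of 26. The sequence of the *Hbb-b2* transcript and the untranslated bases of the other transcripts were not compared. The division of reads among *Hbb-b1*, *Hbb-b2* and *Beta-s* is therefore uncertain.

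The alpha-type genes show the same contrast. *Hba-a1* and *Hba-a2* differed at 1 of 429 coding bases and shared a run of 380, whereas *Hba-x*, which differed from *Hba-a1* at 163 bases, shared no run longer than 18 bases with it. Bases 1 to 90 of the coding sequence are given with capitals for bases that differ from *Hba-a1*; over this stretch *Hba-a2* is the same as *Hba-a1*.
Hba-a1: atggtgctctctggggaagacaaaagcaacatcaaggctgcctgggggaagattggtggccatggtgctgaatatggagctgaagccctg
Hba-x: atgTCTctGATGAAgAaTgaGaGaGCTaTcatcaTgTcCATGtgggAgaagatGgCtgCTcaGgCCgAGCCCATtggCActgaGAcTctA
In the files both adult-type alpha transcripts are listed at each of 2 places on chromosome 11 of mm9, near 32183672 and near 32196489, and a status of OK or FAIL is given for every row.

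Embryonic chains were far lower in ScxGFP-positive cells. *Hbb-y*, the epsilon-y chain, had 85.8 FPKM in ScxGFP-positive cells and 3303 FPKM in ScxGFP-negative cells (mm9 chromosome 7, 111000268 to 111001721, status OK in both). Its coverage was 196 in positive cells and 7889 in negative cells. The positive level was thus 2.60% of the negative level, a log2 ratio of −5.25 on the scale of FPKM + 1. *Hba-x*, the zeta chain, followed it closely, at 66.4 FPKM in ScxGFP-positive cells and 2974 FPKM in ScxGFP-negative cells, 2.23% of the negative level, with a coverage of 152 in positive and 7103 in negative cells (mm9 chromosome 11, 32176600 to 32178115, status OK in both). Within each library the zeta chain therefore stood slightly below the embryonic beta-type chains, at 0.772 of their summed FPKM in ScxGFP-positive cells and 0.897 in ScxGFP-negative cells. In pooled cells fewer red cells and less globin RNA per cell cannot be told apart.

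*Hbb-bh1*, the beta-H1 chain, was a minor transcript in both libraries. It had 0.157 FPKM in ScxGFP-positive cells and 12.1 FPKM in ScxGFP-negative cells, with a coverage of 0.358 in positive and 29.0 in negative cells (mm9 chromosome 7, 110990152 to 110991676, status OK in both). The positive value rests on about 219 aligned bases, so its 1.29% of the negative level is poorly bounded. Its log2 ratio was −3.50 with a pseudocount of 1, −5.57 with 0.1 and −1.73 with 5. *Hbb-y* exceeded it 547-fold in ScxGFP-positive cells and 272-fold in ScxGFP-negative cells, so *Hbb-y* made up nearly all of the embryonic beta-type signal in either population.

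Adult-type beta chains were lower by a wider margin than the embryonic ones. *Beta-s*, an adult beta-globin gene, had 31.5 FPKM in ScxGFP-positive cells and 3197 FPKM in ScxGFP-negative cells, 0.987% of the negative level. *Hbb-b1* had 13.0 FPKM in ScxGFP-positive cells and 1806 FPKM in ScxGFP-negative cells, or 0.719%. *Hbb-b2* had 7.27 FPKM in ScxGFP-positive cells and 880 FPKM in ScxGFP-negative cells, or 0.827%. All 3 rows had status OK in both libraries, and their percentages lay below those of *Hbb-y*, *Hba-x* and *Hbb-bh1*. Coverages were 72.04, 29.7 and 16.6 in the positive library for *Beta-s*, *Hbb-b1* and *Hbb-b2*, and 7635, 4313 and 2101 in the negative library. Among the adult-type rows *Beta-s* held 60.9% of the summed FPKM in ScxGFP-positive cells and 54.3% in ScxGFP-negative cells, a division that the shared sequence leaves uncertain.

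**Figure D1:**
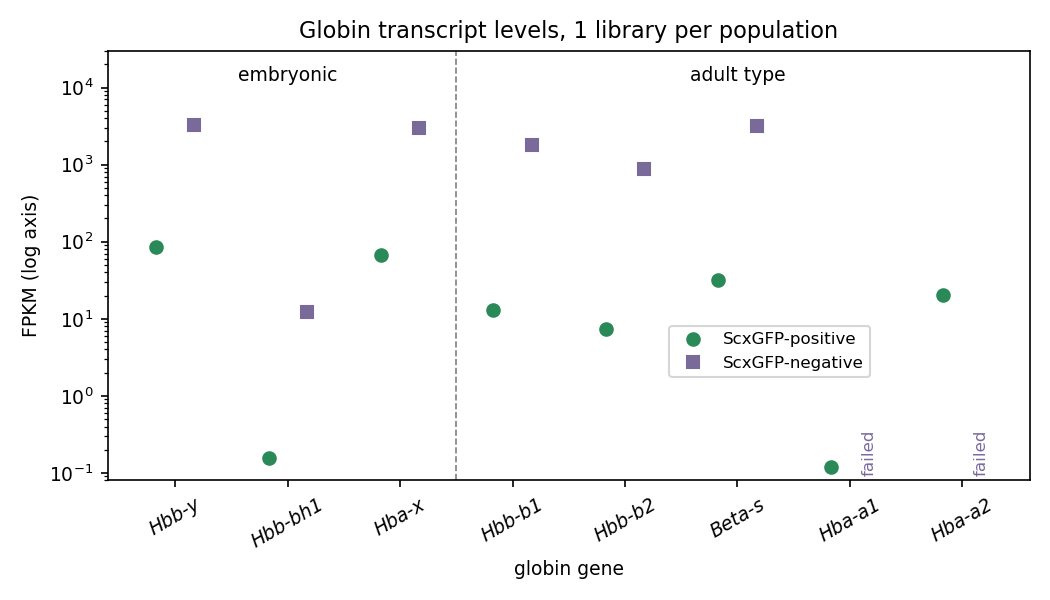
FPKM of each globin gene on a log axis, with 1 library per population, circles for ScxGFP-positive and squares for ScxGFP-negative cells; "failed" marks genes with a failed row in the negative library. *Hbb-y*, *Hba-x* and *Beta-s* lie at 85.8, 66.4 and 31.5 FPKM in positive cells and close together at 3303, 2974 and 3197 FPKM in negative cells.

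Adult-type alpha chains could be read in the positive library only. *Hba-a2* stood at 20.6 FPKM there (coverage 47.0) and *Hba-a1* at a coverage of 0.274 (about 153 aligned bases), both from the place near 32183672, while both rows near 32196489 were listed at 0. In ScxGFP-negative cells the rows of both genes near 32183672 had status FAIL and count as missing. The rows near 32196489 had status OK in that library, at 2.83 FPKM for *Hba-a2* and 0.238 FPKM for *Hba-a1*, and cover only part of these genes' reads if reads were divided between the places. No ratio between the libraries is therefore given for either gene. In ScxGFP-positive cells the zeta chain exceeded the summed adult-type alpha chains, 66.4 against 20.7 FPKM, and made up 76.2% of alpha-type FPKM. That share is uncertain, because coding reads of the adult-type alpha genes can hardly be told apart and some may be missing from their rows.

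The make-up of the beta-type transcripts differed between the populations. In ScxGFP-positive cells the embryonic chains summed to 86.0 FPKM and the adult-type chains to 51.8 FPKM, an embryonic share of 62.4%. In ScxGFP-negative cells the embryonic chains summed to 3316 FPKM and the adult-type chains to 5882 FPKM, an embryonic share of 36.05%. Embryonic chains thus outweighed adult-type chains 1.66-fold in the positive library, and adult-type chains outweighed embryonic chains 1.77-fold in the negative library. The ScxGFP-positive level was 2.59% of the ScxGFP-negative level for the embryonic sum and 0.881% for the adult-type sum, so that the embryonic-to-adult ratio was 2.95-fold higher in ScxGFP-positive cells (a log2 difference of 1.56). These shares are taken within a library, so library scaling cancels in them. How reads that match more than 1 adult-type place were counted was not checked, so the adult-type sum is uncertain as well as its division. With *Beta-s* alone as the adult-type chain the shares were 73.2% in ScxGFP-positive cells and 50.9% in ScxGFP-negative cells, which leaves the direction but turns the larger side in negative cells. With 1 library per population, the spread of such a share between samples is not known.

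**Figure D2:**
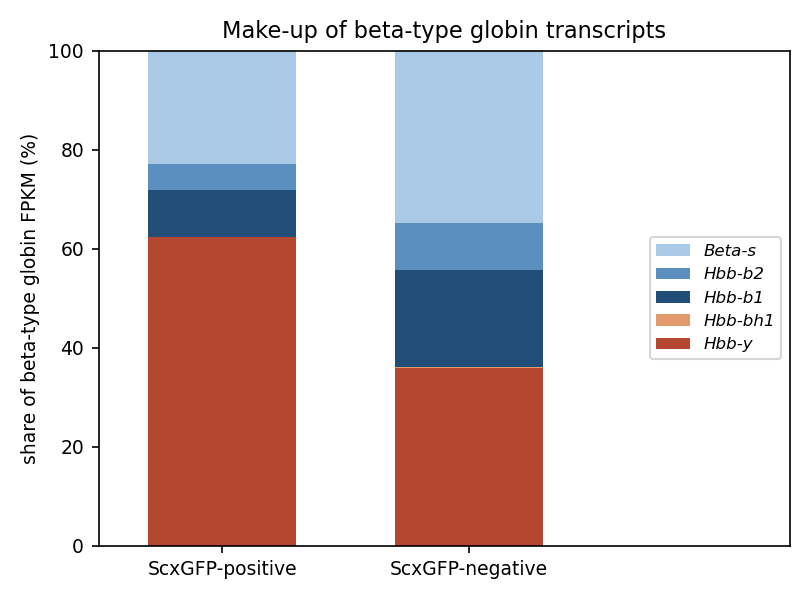
Share of beta-type globin FPKM held by each gene in ScxGFP-positive and ScxGFP-negative cells, 1 library each, with embryonic chains in red and orange and adult-type chains in blues. The embryonic share is 62.4% in positive cells and 36.05% in negative cells, and the orange band of *Hbb-bh1* is too thin to see in the positive bar.

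The globins were set against all 12096 genes that reached an FPKM of 1 in one library or the other. Of the 8 members 6 had a ratio, and all 6 were at least 2-fold lower in ScxGFP-positive cells, as were 9.98% of all measured genes; 0 of the 6 were 2-fold higher, beside 4.03% of all. At 8-fold the count was 6 of 6 beside 1.17% of all genes, and at 32-fold 5 of 6 beside 0.364%. At 64-fold it was 3 of 6, the adult-type rows, beside 0.215%. These 3 rows cannot be taken as separate measurements. *Hbb-b1* and *Hbb-b2* lie at 1 place, and coding reads of *Hbb-b1* and *Beta-s* can hardly be told apart. *Hbb-bh1* passed the filter through the negative library alone, and 5 members had an FPKM of at least 1 in both. The median log2 ratio of the 6 members was −6.04, against −0.27 for all measured genes, so it lay −5.78 from the general shift. On the same scale, 11794 measured genes were annotated with at least 200 bases and lay above 0 in the positive library, and among these *Hbb-b1*, *Hbb-b2* and *Beta-s* had the 3 lowest log2 ratios. *Hba-x* had 6 such genes below it and *Hbb-y* 8, the adult-type rows among them, whereas *Hbb-bh1* had 53. That order leaves out shorter genes and genes at 0 in positive cells. Among all 12096 measured genes, 14 had a lower log2 ratio than *Hbb-b1*, 18 than *Hbb-b2* and 19 than *Beta-s*. For *Hba-x*, *Hbb-y* and *Hbb-bh1* the counts were 34, 40 and 107. Of 30 genes with at least 200 bases and an FPKM of at least 500 in ScxGFP-negative cells, 5 were globins, at 0.719% to 2.60% of the negative level. The next lowest, the poly(A)-binding protein gene *Pabpc1*, named after its value was seen, was at 29.7%. It had 200.7 FPKM in positive and 676 FPKM in negative cells. The 5 globins reached 500 FPKM in the negative library alone, and a set picked by its negative level favours low percentages.

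**Figure D3:**
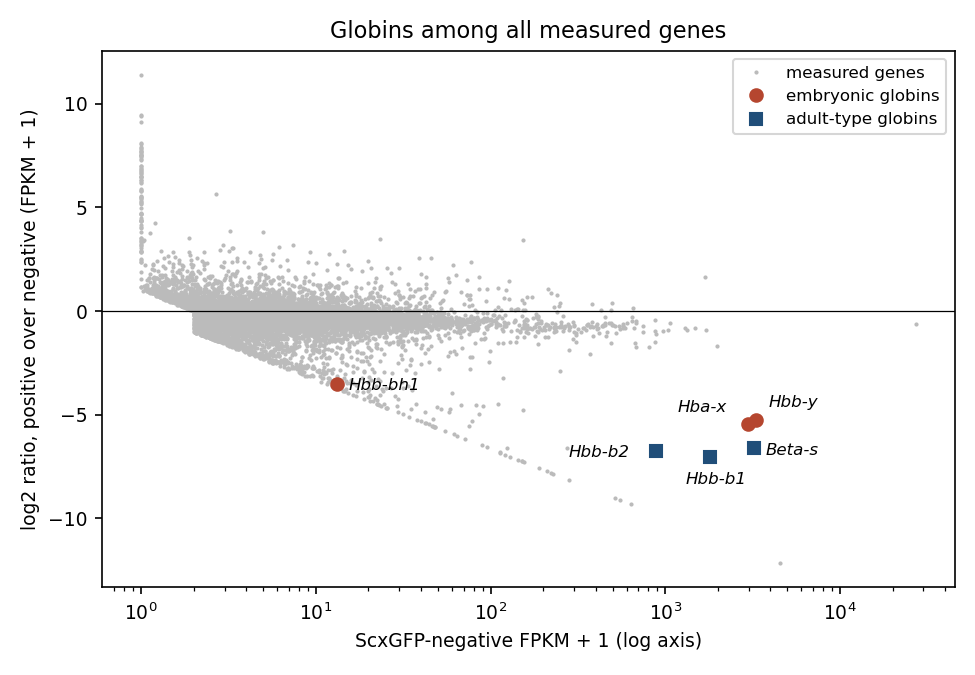
Log2 ratio of ScxGFP-positive over ScxGFP-negative FPKM, each plus 1, against the level in negative cells on a log axis, for 12096 measured genes (grey), embryonic globins (red circles) and adult-type globins (blue squares). The 3 adult-type rows lie at −6.62 to −7.01, below *Hbb-y* and *Hba-x* at −5.25 and −5.46. *Hbb-bh1*, at −3.50, lies close to the lower edge that a gene of its level can reach with a pseudocount of 1.

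Other globin genes did not stand at comparable levels. The theta-like alpha-cluster genes *Hbq1a* and *Hbq1b* were listed at 0 in ScxGFP-positive cells and stood at 0.316 and 0.767 FPKM in ScxGFP-negative cells. *Cygb*, cytoglobin, which fibroblast-like cells express, ran the other way, at 1.29 FPKM in ScxGFP-positive cells and 0.579 FPKM in ScxGFP-negative cells, less than 2-fold apart on the FPKM + 1 scale (log2 ratio 0.54). *Ngb*, neuroglobin, was at 0.0368 FPKM in ScxGFP-positive and 0.0339 FPKM in ScxGFP-negative cells, on about 136 and 131 aligned bases. *Mb*, the muscle oxygen store myoglobin, was at 0.133 FPKM in ScxGFP-positive cells and listed at 0 in ScxGFP-negative cells. *Hbb-bh2* was not analysed here.

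Some of the genes that supply haem were much lower in ScxGFP-positive cells, and most were within 2-fold. *Alas2*, the first enzyme of erythroid haem synthesis, had 2.51 FPKM in ScxGFP-positive cells and 81.1 FPKM in ScxGFP-negative cells, 3.10% of the negative level. The mitochondrial iron importer gene *Slc25a37* had 3.93 FPKM in ScxGFP-positive cells and 110 FPKM in ScxGFP-negative cells (3.58%), and *Fech*, which inserts iron into the ring, had 2.21 FPKM in ScxGFP-positive cells and 23.7 FPKM in ScxGFP-negative cells (9.35%). Of 18 measured genes of haem synthesis and breakdown 6 were at least 2-fold lower, 0 higher and 12 neither, with a median log2 ratio of −0.62. These 3 genes thus kept a larger share of their negative level than *Hbb-y*, *Hba-x* and the adult-type chains did, and most enzymes of the pathway, which other cells use too, lay within 2-fold.

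Transcription factors of blood formation stood below *Hbb-y* in both libraries, and some were lower in ScxGFP-positive cells. The highest of the list had 19.0 FPKM in ScxGFP-positive cells and 28.5 FPKM in ScxGFP-negative cells. *Lmo2* had 0.680 FPKM in ScxGFP-positive cells and 11.2 FPKM in ScxGFP-negative cells, *Lyl1* had 0.271 FPKM in positive and 5.90 FPKM in negative cells, and *Tal1* had 0.0845 FPKM in positive and 4.10 FPKM in negative cells (about 803 aligned bases in the positive library). These partners of one blood and endothelial complex are not restricted to red cells. *Gata1*, the erythroid master factor, was listed at 0 in ScxGFP-positive cells and stood at 1.53 FPKM in ScxGFP-negative cells. Of 15 measured genes in the list 7 were at least 2-fold lower, 0 higher and 8 neither, with a median log2 ratio of −0.97. The pseudocount shrinks the ratios of low values, and the 8 included genes at 16.4%, 42.5% and 48.5% of their negative levels. Among iron genes *Trf*, transferrin, was at 0.303 FPKM in ScxGFP-positive cells and 7.46 FPKM in ScxGFP-negative cells, and the ferritin genes *Fth1* and *Ftl1* were at 23.3% and 34.7% of their negative levels. Of 5 measured iron genes 4 were lower, 0 higher and 1 neither, with a median of −1.52.

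Genes of the red cell membrane were lower in part as well. *Slc4a1*, the anion exchanger band 3, had 0.424 FPKM in ScxGFP-positive cells and 41.03 FPKM in ScxGFP-negative cells, 1.03% of the negative level and between the adult-type and the embryonic globins. Of 18 listed genes, with *Slc25a37* among them as in the haem list, 14 were measured, of which 9 were at least 2-fold lower, 0 higher and 5 neither; the median log2 ratio was −1.54 and the median percentage 7.12%, in a range of 0.692% to 75.9%. *Tspo2*, *Cldn13* and *Mrap* were listed at 0 in ScxGFP-positive cells. The summed level of the list was 8.23 FPKM in ScxGFP-positive cells and 195 FPKM in ScxGFP-negative cells, or 4.22%. *Slc25a37* alone supplied 3.93 FPKM of the positive sum and 110 FPKM of the negative sum.

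**Figure D4:**
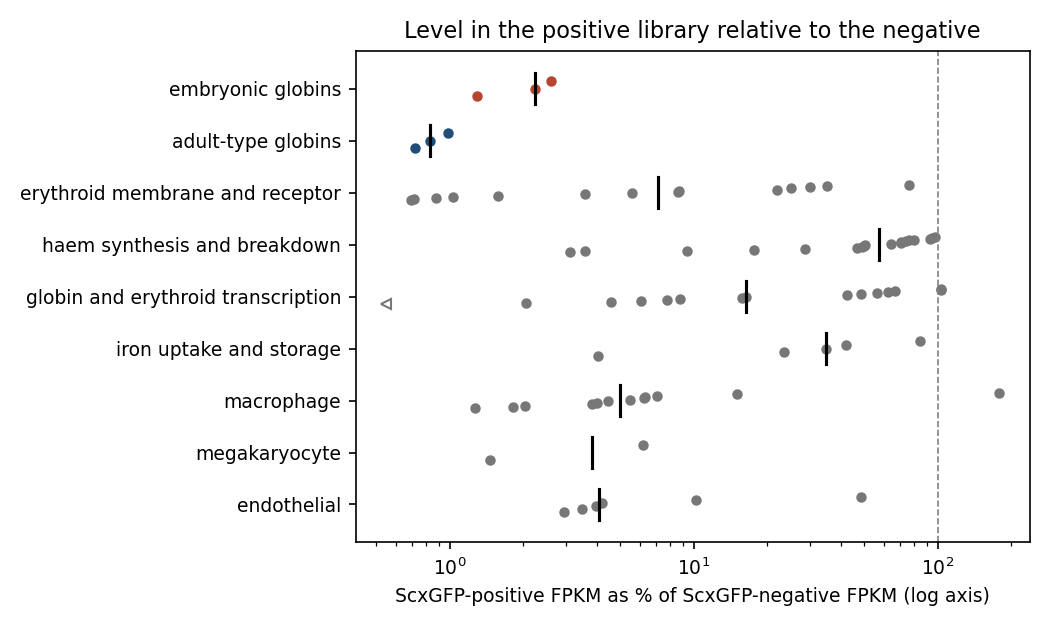
Level in ScxGFP-positive cells as a percentage of that in ScxGFP-negative cells, on a log axis, for each measured gene of the globin classes and of 7 gene lists; black bars are medians and the open triangle is *Gata1*, listed at 0 in positive cells. The adult-type globins lie at 0.719% to 0.987% and the embryonic globins at 1.29% to 2.60%, while the medians of the lists run up to 57.1% for haem genes.

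Markers of other cells that do not carry the reporter moved with the globins. The macrophage list summed to 31.1 FPKM in ScxGFP-positive cells and 322 FPKM in ScxGFP-negative cells, with 11 of 12 genes at least 2-fold lower, a median of 4.97% of the negative level and no marker at 0. The exception was *Vcam1*, an adhesion gene that other cells express too, at 19.1 FPKM in positive and 10.8 FPKM in negative cells; without it, an alternative chosen after seeing the data, the list summed to 11.97 FPKM in positive and 311 FPKM in negative cells. The endothelial list summed to 2.70 FPKM in ScxGFP-positive cells and 40.3 FPKM in ScxGFP-negative cells, with 5 of 6 lower and a median of 4.09%. Of 7 megakaryocyte genes 2 were measured, both lower, the list summed to 2.25 FPKM in ScxGFP-positive cells and 26.2 FPKM in ScxGFP-negative cells, and *Gp9* was listed at 0 in positive cells. Tendon genes ran the other way, with 5 of 6 at least 2-fold higher and 1 neither. They summed to 200.3 FPKM in ScxGFP-positive cells and 8.91 FPKM in ScxGFP-negative cells. *Scx*, whose regulatory sequence drives the reporter, supplied 134 FPKM of the positive sum. The part of macrophages, megakaryocytes and endothelial cells in the globin values was not tested.

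By likeness of ratio, the genes nearest the members were sought among 919 genes with 1 transcript row of at least 200 bases, status OK in both libraries, an FPKM of at least 20 in ScxGFP-negative cells and a value above 0 in positive cells. The measure was the distance in log2 FPKM ratio, over 2 libraries, from the members' median, which corresponds to 1.13% of the negative level. The 5 nearest were *Slc4a1* (1.03%), the macrophage lysozyme gene *Lyz2* (1.26%), the keratinocyte gene *Krtdap* (0.971%), *Hdc*, the enzyme that makes histamine (0.971%), and *Srgn*, the proteoglycan of secretory granules (0.853%). They are markers of red cells, macrophages, epidermis and granule-bearing blood cells, so genes of several cell types had ratios of this size. Only 9 of the 919 lay below the members' median. The FPKM limit of 20 was set on the negative library, which favours low percentages. Behind the positive values of *Krtdap* and *Hdc* lie about 344 and 1098 aligned bases.

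The upstream sequence of the globin genes is shown as a description, and its part in their levels was not tested. RefSeq's table held a promoter for 6 of the 8 members, those of *Hbb-y*, *Hba-x*, *Hbb-bs*, *Hbb-bt*, *Hba-a1* and *Hba-a2*. Printed are the 130 bases before the start of 4 of them, 5′ to 3′ on the gene's strand, with their places in GRCm38.p6; capitals mark the letters CACCC, the core of sites for Kruppel-like factors, GATAA, that of sites for GATA factors, and CCAAT, a box common in promoters, all searched on both strands.
Hbb-y, chr7:103853208-103853337, minus strand: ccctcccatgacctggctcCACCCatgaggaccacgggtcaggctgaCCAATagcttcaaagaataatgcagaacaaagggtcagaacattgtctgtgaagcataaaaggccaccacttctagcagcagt
Hba-x, chr11:32276470-32276599, plus strand: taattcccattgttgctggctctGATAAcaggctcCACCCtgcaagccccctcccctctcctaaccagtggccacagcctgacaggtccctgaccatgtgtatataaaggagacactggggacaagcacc
Hbb-bs, chr7:103827929-103828058, minus strand: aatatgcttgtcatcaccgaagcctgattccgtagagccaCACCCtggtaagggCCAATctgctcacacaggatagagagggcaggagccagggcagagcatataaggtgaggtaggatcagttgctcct
Hba-a1, chr11:32283542-32283671, plus strand: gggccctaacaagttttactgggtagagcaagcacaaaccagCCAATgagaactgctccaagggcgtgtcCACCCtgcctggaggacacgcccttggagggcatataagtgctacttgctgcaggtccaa
Over the 250 bases before the start, CACCC was found in 6 of the 6 promoters, GATAA in 6 and CCAAT in 5, the exception being *Hba-x*. Of 32851 promoters in the table the same window held CACCC in 52.0%, GATAA in 22.6% and CCAAT in 33.8%, and all 3 together in 3.45%. In the globin promoters all 3 were present in 5 of 6. These 6 are not the 6 members with a ratio: *Hba-a1* and *Hba-a2* have no ratio, and *Hbb-bh1* and *Hbb-b2* had no promoter there. The promoters of *Hba-a1* and *Hba-a2* share a run of 297 bases and are not separate cases.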

How the data were processed

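RNA from sorted forelimb cells was sequenced in 1 library for each of 2 groups, by the cell population that the labels give. Per the labels' protocols, the RNeasy micro kit served for RNA and the NuGEN Ovation RNA-Seq v2 assay for cDNA; whether strand was used in counting is not stated. TopHat 1.4.1 and Bowtie 0.12.7 are named with mm9, per the submitters' processing notes; for the estimator of abundance a version was not given in these sources. The authors' deposited FPKM and coverage signal are given for 28107 transcript rows per library, with length, place and status, per the file headers. Rows with status FAIL numbered 5 in ScxGFP-positive cells and 6 in ScxGFP-negative cells.

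Starts are counted from 0 by the authors, so 1 was added here. The rows of a symbol were added up, and a symbol with a failed row was missing in that library. Ratios of positive over negative are on the log2 scale after a pseudocount of 1 was added to each FPKM, called at 2-fold among genes that reach 1 FPKM in one library or the other; percentages use FPKM without a pseudocount. Failed estimates, shared sequence and the amplification of small RNA amounts may each shift single values. Calculations used Python 3.11.15, pandas 2.3.3 and numpy 2.4.6. The ratio step was run on values changed by known factors without noise, which checks the arithmetic only. Named genes are the members, other globins, *Scx*, up to 3 genes per pathway list with the largest absolute ratio and the 5 genes nearest in ratio; *Gata1* and genes listed at 0 were added after values were seen. A listed gene is not reported here by name. The members and lists were chosen with earlier results of these data known. Other pseudocounts, filters, scalings and definitions of the chains were tried.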

Additional observations from a re-analysis of the deposited data

How the results depend on the processing

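The count of 6 members at least 2-fold lower in ScxGFP-positive cells was the same under each of the 11 alternatives tried: pseudocounts of 0.1 and 5, 4 scalings, the highest row of a symbol, no filter, a minimum FPKM of 5, a 4-fold threshold, and failed rows at their listed 0. The choices of row, filter and failed rows left the ratios of these 6 unchanged by construction. Each of the 6 has 1 row, with status OK, and at least 12.1 FPKM in the negative library. The share of all measured genes called lower ran from 2.93% with the 4-fold threshold to 14.7% with a pseudocount of 0.1. The members' median log2 ratio ran from −6.12 to −5.46, the last over 7 members. That setting gives *Hba-a2* a log2 ratio of 2.49, higher in ScxGFP-positive cells, against a failed estimate. The embryonic share of beta-type globin was 61.9% in ScxGFP-positive cells and 35.6% in ScxGFP-negative cells with aligned bases in place of FPKM, 73.2% in positive and 50.9% in negative cells with *Beta-s* alone as the adult-type chain, and 80.9% in positive and 55.2% in negative cells with *Hbb-b1* and *Hbb-b2* without *Beta-s*; fewer adult-type rows enter the last pairs by construction. The log2 difference in the embryonic-to-adult ratio was 1.39 with *Beta-s* alone, 1.78 without it and 1.55 with a pseudocount of 1. Leaving out *Hbb-bh1*, which has little weight beside *Hbb-y*, left the shares and the difference the same to 3 digits. Using coverage did so by construction, because coverage is a constant multiple of FPKM within a library. No paired analysis was possible because each group is 1 library. Depth limits *Hbb-bh1* and *Hba-a1* most, at about 219 and 153 aligned bases in the positive library.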
